A study of Mus musculus with 29 samples.

Results

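Matrix metalloproteinases (Mmp genes), their tissue inhibitors (Timp genes) and the related membrane and secreted proteinases of the ADAM and ADAMTS families were followed through early pregnancy in the mouse uterus. Members were all array genes whose name, or current symbol, was Mmp, Timp, Adam or Adamts followed by a number and an optional letter. This gave 71 of the 27670 named genes on the array, with 124 probes. There were 21 Mmp genes, 4 Timp genes, 29 Adam genes and 17 Adamts genes, each read from its brightest probe. CD-1 females received corn oil (CON) or 50 mg/kg/day of genistein (GEN), a plant estrogen, on postnatal days 1 to 5. As adults they were mated, and whole uteri were taken on gestation day (GD) 1.5, 3.5, 4.5 or 5.5, giving 8 groups. GD1.5 had 3 CON and 4 GEN samples, GD3.5 had 3 and 3, and GD4.5 and GD5.5 each had 4 and 4. The series title links neonatal genistein to implantation failure, altered uterine patterning and defective gland formation, so each day asks whether the exposed adult uterus differs and each interval asks what normally changes.

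MMPs are secreted or membrane-bound zinc enzymes that cut collagen, elastin, proteoglycans and cell-surface proteins, and TIMPs block them. ADAMs are membrane proteins, many of which release growth factors and receptors from the cell surface. ADAMTS enzymes are secreted and act on proteoglycans such as versican or on procollagen. In the uterus these enzymes are known for matrix turnover, which takes place as the epithelium and stroma change after mating and as the stroma becomes decidua around an implanting embryo.

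Each of the 29 samples was hybridised alone to a one-colour Agilent array, and levels are log2 intensities relative to the array's 75th percentile. Between 65.5% and 80.9% of spots were well above background, and at most 2 spots an array were saturated. Arrays of a group correlated at r = 0.949 to 0.997. GD1.5 and GD3.5 shared slides, except that GD3.5 CON 3 was alone on slide 4 and in scan 2, and GD4.5 and GD5.5 shared other slides, where the 75th percentile was 734 to 995 in place of 1490 to 1840. The step from GD3.5 to GD4.5 cannot be told apart from this change of slides and was not tested. Of the 71 members, 46 were well above background on all 29 arrays, 64 could be tested in some comparison, and 3 (Adam32, Adamts13 and Mmp20) were above background on none. Levels are not compared between genes, because probes differ in brightness. The labels do not say whether samples were separate animals, so the p-values measure only the spread between these samples. In whole-uterus RNA, fewer cells of a type and less RNA per cell cannot be told apart.

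Several of the Mmp genes with the largest changes lie side by side on chromosome 9. In the array design's NCBI35 (mm7) coordinates the probes of Mmp13, Mmp12, Mmp3, Mmp1a, Mmp10, Mmp8, Mmp20 and Mmp7 follow one another in that order over 415 kb, from 7280046 to 7695493. Mmp3 and Mmp7 were well above background on all 29 arrays, Mmp10 on 25, Mmp8 on 20, Mmp12 on 10, Mmp1a on 6, Mmp13 on 5 and Mmp20 on none. The 250 bases before an annotated start of Mmp3, Mmp10 and Mmp7 are shown because all 3 of these neighbours fell from GD1.5 to GD3.5 in GEN, as described further on. Sequences are RefSeq's, build GRCm38.p6, plus strand, 5′ to 3′: Mmp3 at chr9:7445572-7445821, Mmp10 at chr9:7502092-7502341 and Mmp7 at chr9:7691840-7692089. Capitals mark TGAGTCA, the letters of a classical AP-1 motif.
Mmp3: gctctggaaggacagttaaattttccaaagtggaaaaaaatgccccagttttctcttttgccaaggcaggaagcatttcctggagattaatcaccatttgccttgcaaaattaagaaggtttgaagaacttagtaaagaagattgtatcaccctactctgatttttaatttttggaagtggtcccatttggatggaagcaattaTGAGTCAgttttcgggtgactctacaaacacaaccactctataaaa
Mmp10: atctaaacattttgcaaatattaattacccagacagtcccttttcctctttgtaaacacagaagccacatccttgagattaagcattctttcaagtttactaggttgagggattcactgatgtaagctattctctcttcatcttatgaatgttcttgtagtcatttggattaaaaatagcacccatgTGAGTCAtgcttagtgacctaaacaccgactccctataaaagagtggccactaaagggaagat
Mmp7: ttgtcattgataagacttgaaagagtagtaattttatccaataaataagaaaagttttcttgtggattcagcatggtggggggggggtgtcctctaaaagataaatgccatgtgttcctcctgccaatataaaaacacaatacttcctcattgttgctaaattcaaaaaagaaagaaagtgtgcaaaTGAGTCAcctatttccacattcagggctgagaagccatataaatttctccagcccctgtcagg
TGAGTCA lay 39 bases before the annotated start of Mmp3, and 56 bases before those of Mmp10 and Mmp7. The window of the other annotated Mmp7 start, at chr9:7692091-7692340, held no such motif. TGAGTCA or its reverse complement TGACTCA, which do not overlap another motif searched, occurred in 1466 of the 32851 such windows of all genes (4.46%). Of the members, 42 had a window, and 8 of their 47 windows (17%) held the motif. The 8 chromosome 9 Mmp genes had 10 windows, of which 6 held it, 1 each for Mmp3, Mmp7, Mmp10, Mmp12, Mmp13 and Mmp1a. The windows of Mmp8 and Mmp20 did not hold it, and over all Mmp genes 6 of 19 windows did. These counts describe letters, not binding.

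The probes that measured Mmp7 and Mmp12 are also shown, because the largest fall between days and the called genistein difference rest on them. The Mmp7 probe lies at chr9:7695434-7695493 and the Mmp12 probe at chr9:7352125-7352640, both NCBI35 (mm7), plus strand. The Mmp12 probe is 60 bases long and spans 516 bases of the genome. Each is in lower case, as no letter is singled out.
Mmp7 probe: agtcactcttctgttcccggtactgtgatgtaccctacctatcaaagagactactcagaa
Mmp12 probe: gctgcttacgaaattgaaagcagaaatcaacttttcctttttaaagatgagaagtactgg

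From GD1.5 to GD3.5 matrilysin (Mmp7), stromelysin-2 (Mmp10) and stromelysin-3 (Mmp11) fell in both exposures. In CON, 4 of 58 members tested fell and 0 rose, all 4 of them Mmp genes: Mmp7, Mmp10, Mmp11 and Mmp12. Mmp12 was tested in CON only because its GD1.5 arrays were above background, so its p there is a description. In GEN, 7 of 58 fell (Mmp7, Mmp10, Mmp11, Mmp3, Mmp9, Mmp25 and Adam8) and 2 rose (Adam12 and Adamts16). Beside these, 2.33% of all genes were called in CON and 4.76% in GEN by the same limma test at a Benjamini-Hochberg adjusted p under 0.05. Lower calls made up 1.30% of all genes in CON and 2.34% in GEN, and higher calls 1.03% and 2.42%. The median member change was -0.07 in CON against 0.02 over all genes, and -0.05 in GEN against 0.01. Mmp7, Mmp10 and Mmp11 were called in both exposures, and each moved the same way in both. Leaving out 1 sample at a time gave 1 to 4 members called in CON, with fewest (1) without GD1.5 CON 2 and 2 without GD1.5 CON 1, GD3.5 CON 1 or GD3.5 CON 3. In GEN it gave 4 to 11, with 4 without GD3.5 GEN 4 and 5 without GD3.5 GEN 3.

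Mmp7 encodes matrilysin, a small secreted MMP made mainly by epithelium. Its level was 1.00, 3.44 and 3.27 in the GD1.5 CON samples and -3.81, -3.75 and -5.13 in the GD3.5 CON samples. In GEN it was 3.04, 0.38, 1.45 and 3.15 at GD1.5 and -5.55, -5.64 and -5.75 at GD3.5. Every GD3.5 sample was far below every GD1.5 sample in both exposures. The log2 difference was -6.81 (SE 0.97, limma adjusted p = 2.62e-04) in CON, 112-fold, and -7.65 (SE 0.91, limma adjusted p = 2.16e-05) in GEN, 201-fold. Within the slide that held both days in CON it was -4.82, and within the 3 such slides in GEN it was -8.84 to -5.93. Both calls were kept in every alternative fit.

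The stromelysins Mmp3 and Mmp10 and the related Mmp11 (stromelysin-3, a stromal enzyme of remodelling tissue) all fell in GEN, and 2 of the 3 fell in CON. Mmp10 was at -1.55, -2.09 and -3.41 at GD1.5 and -5.41, -5.12 and -5.82 at GD3.5 in CON. The GEN samples were at -1.92, -0.11, -1.75 and -3.13 and then at -5.24, -4.99 and -5.22. The days did not overlap in either exposure, and the log2 differences were -3.10 (SE 0.69, limma adjusted p = 0.0158, 8.59-fold) and -3.42 (SE 0.65, limma adjusted p = 0.00249, 10.7-fold). For Mmp11 the CON levels were 3.85, 3.75 and 3.45 and then 1.68, 2.04 and 1.42, and the GEN levels were 4.24, 5.31, 5.02 and 2.85 and then 2.31, 2.15 and 2.19. Again no GD3.5 sample reached a GD1.5 sample of its exposure. The differences were -1.97 (SE 0.44, limma adjusted p = 0.0156) and -2.14 (SE 0.41, limma adjusted p = 0.00265). The CON calls of Mmp10 and Mmp11 were each lost in 4 of the 6 fits without 1 sample of these groups (GD1.5 CON 1 or 2, GD3.5 CON 1 or 3), with limma adjusted p of 0.0568 to 0.100 and 0.0589 to 0.103. With slide as a fixed block both were lost too, Mmp10 at -2.90 (limma adjusted p = 0.0644) and Mmp11 at -1.51 (limma adjusted p = 0.379). Mmp10 was also lost with normexp background correction (-1.32, limma adjusted p = 0.275) and in a fit on only the arrays compared (limma adjusted p = 0.0522), and Mmp11 with the replicate number as a block (limma adjusted p = 0.0524).

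Mmp3, stromelysin-1, differed less evenly. Its CON levels were 2.13, 2.46 and 1.87 at GD1.5 and 2.29, 1.2 and 1.09 at GD3.5, with GD3.5 CON 1 inside the GD1.5 range. Its GEN levels were 2.99, 3.08, 3.08 and 1.76 at GD1.5 and 0.94, 1.06 and 1.15 at GD3.5, without overlap. The log2 difference was -0.63 (SE 0.41, limma adjusted p = 0.570) in CON and -1.67 (SE 0.39, limma adjusted p = 0.0117) in GEN. The GEN call was lost without GD3.5 GEN 3 (limma adjusted p = 0.0573) or GD3.5 GEN 4 (0.0512). GEN against CON was not shown to differ between the days, as no member was called in that difference, where 0% of all genes were.

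**Figure D1:**
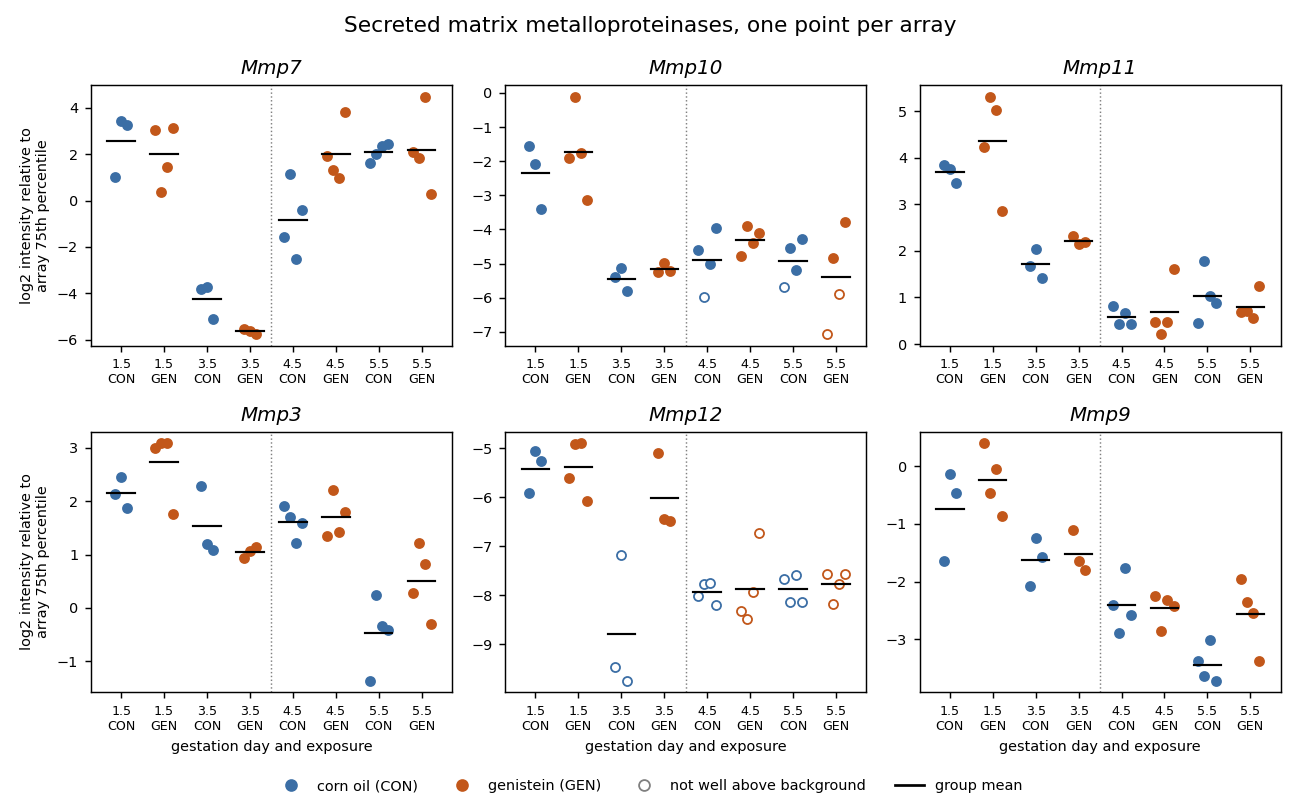
Log2 intensity relative to the array's 75th percentile (vertical axis) for 6 Mmp genes in every sample of the 8 groups (horizontal axis), with corn oil and genistein in different colours. Points are samples, black bars are group means and open points were not well above background. The dotted line separates the slides of GD1.5 and GD3.5 from those of GD4.5 and GD5.5. Mmp7 is at 0.38 to 3.44 on GD1.5 and at -5.75 to -3.75 on GD3.5.

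Gelatinase B, Mmp9, and the membrane-anchored Mmp25 (leukolysin) are enzymes known from neutrophils. Mmp9 was at 0.39, -0.46, -0.05 and -0.86 in GD1.5 GEN and at -1.11, -1.65 and -1.79 in GD3.5 GEN, a change of -1.27 (SE 0.36, limma adjusted p = 0.0430). In CON it was at -1.65, -0.13 and -0.47 and then at -2.08, -1.25 and -1.57, overlapping, with a difference of -0.88 (SE 0.39, limma adjusted p = 0.296). Mmp25 fell in GEN from -1.92, -2.94, -2.93 and -3.79 to -3.88, -5.39 and -5.39 (log2 -1.99, SE 0.52, limma adjusted p = 0.0282). The GEN days of both genes did not overlap, though GD3.5 GEN 1 lay closest to GD1.5 in each. Each call was lost in 5 of the 7 fits without 1 sample of these groups: without GD1.5 GEN 1, 2 or 3 or GD3.5 GEN 3 or 4. The limma adjusted p was then 0.0720 to 0.217 for Mmp9 and 0.0506 to 0.176 for Mmp25. A list of 8 neutrophil markers without Mmp genes had a median GEN change of -1.93 (1 lower), and 6 of them tested in CON had -1.67 (0 called). Its part in these values was not tested.

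Of the enzymes that rose, Adam12 (meltrin alpha, a sheddase of stromal and muscle precursor cells) and Adamts16 were called in GEN. Adam12 was at -4.70, -4.30, -4.12 and -3.68 in GD1.5 GEN and at -2.73, -2.63 and -2.55 in GD3.5 GEN. In CON it was at -3.77, -4.27 and -4.33 and then at -2.78, -3.11 and -3.02. The days did not overlap in either exposure, and the log2 difference was 1.56 (SE 0.30, limma adjusted p = 0.00301, 2.96-fold) in GEN and 1.15 (SE 0.32, limma adjusted p = 0.0615) in CON. The GEN call was kept in every alternative fit. Adamts16 was at -3.83, -4.02, -3.27 and -2.89 and then at -1.63, -1.17 and -0.90 in GEN, without overlap. Its difference was 2.27 (SE 0.48, limma adjusted p = 0.00686, 4.82-fold) in GEN, and 1.72 (SE 0.52, limma adjusted p = 0.0856) in CON, where GD1.5 CON 1 at -2.85 lay within the GD3.5 range of -3.22 to -1.39. Without GD3.5 GEN 4 the GEN call of Adamts16 was lost (limma adjusted p = 0.0570), and without GD1.5 CON 1 the CON difference was 2.39 and called (limma adjusted p = 0.0127).

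Mmp12, macrophage elastase, is the one member called between exposures on a day. At GD1.5 it was at -5.92, -5.06 and -5.26 in CON and at -5.61, -4.92, -4.90 and -6.08 in GEN. At GD3.5 it was at -9.46, -7.17 and -9.74 in CON and at -5.10, -6.45 and -6.48 in GEN. The exposures overlapped at GD1.5 and did not at GD3.5, where no CON sample was well above background and all 3 GEN samples were. CON fell from GD1.5 by 4.17-fold with dim arrays raised to a floor (log2 -3.38 without the floor, SE 0.52, limma adjusted p = 5.10e-04). GEN differed by -0.63 (SE 0.49, limma adjusted p = 0.562). The CON call was lost with slide as a fixed block (-2.72, limma adjusted p = 0.0896) and in a fit on only the arrays compared (limma adjusted p = 0.0971). The floor is, for each dim array, the higher of its own signal and the lowest signal of any probe well above background. It is not a detection limit of the Mmp12 probe, and normexp fits gave smaller differences, as described below. GD3.5 CON 3, the lowest, was the sample alone on its slide and scan. GEN exceeded CON at GD3.5 by 2.75-fold with the floor (log2 2.78 without the floor, SE 0.52, limma adjusted p = 0.0308). This was 1 of 57 members tested at GD3.5, where 0.103% of all genes were called and 0.0441% were called higher. Mmp12 entered this test only through the 3 GEN arrays on which it was above background, so the p is given as a description. The CON test between days likewise admitted it only through its 3 GD1.5 CON arrays, so that p is a description too.

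The call of Mmp12 between exposures did not hold in several fits. It was lost without GD3.5 CON 1 or GD3.5 CON 3 (limma adjusted p of 0.219 to 0.221). Without any 1 GEN sample the gene had too few arrays above background to be tested. With slide as a fixed block the difference was 2.22 (limma adjusted p = 0.436). With normexp background correction of the raw signals it was -0.15 (limma adjusted p = 0.967), and the CON difference between days was 0.03. Once spots of high local background were left out, the difference between exposures was 0.39 (limma adjusted p = 0.572). The CON difference between days was then -0.67 and called (limma adjusted p = 0.0162). The change in the genistein difference from GD1.5 to GD3.5 was 2.75 (SE 0.71, limma adjusted p = 1.00). None of the 16 arrays of GD4.5 and GD5.5 read Mmp12 well above background. Of 12 macrophage and dendritic cell markers, 3 were higher and 9 lower in GEN at GD3.5, with a median of -0.10 and 0 called; their summed level was 6.92 to 7.31 in CON and 6.84 to 7.31 in GEN. The neutrophil list was higher in GEN for 8 of 8 (median 0.93, 0 called). The part of either in Mmp12 was not tested.

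Beyond Mmp12, genistein moved no member past the threshold on any single day. At GD1.5, 0 of 58 members were called by limma (0.0975% of all genes were, 0.0244% higher and 0.0732% lower), 5 had an unadjusted p under 0.05, and the median difference was 0.12 against -0.01 over all genes. At GD4.5, 0 of 60 were called (0.116% of all genes, 0.0185% higher and 0.0971% lower), 4 had an unadjusted p under 0.05, and the median was -0.07 against -0.04. At GD5.5, 0 of 59 were called (0% of all genes, of which 1101 had an unadjusted p under 0.05), 10 had an unadjusted p under 0.05, and the median was 0.07 against -0.01. Averaged over the 4 days, 0 of 64 were called by limma (1.00% of all genes, 0.330% higher and 0.673% lower), 8 had an unadjusted p under 0.05, and the median was 0.04 against -0.02. Positive averages numbered 15 of 20 for Mmp genes (median 0.24), 3 of 4 for Timp, 14 of 24 for Adam and 7 of 16 for Adamts. Over all genes they numbered 9925 of 23338.

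At GD1.5 the mean levels of Mmp8 and Mmp25 were above CON in GEN, without passing the test. Mmp8, neutrophil collagenase, was at -6.07, -5.45 and -6.11 in CON and at -2.40, -3.82, -4.37 and -4.86 in GEN, without overlap. Mmp25 was at -6.05, -4.16 and -3.58 in CON, and only GD1.5 GEN 4 (-3.79) fell within that range. The differences were 2.02 (SE 0.81, limma adjusted p = 0.638) for Mmp8 and 1.70 (SE 0.52, limma adjusted p = 0.402) for Mmp25, and neither was called. All 8 tested neutrophil markers were higher in GEN too, with a median of 2.49 and 0 called; their summed level was 6.88 to 7.45 in CON and 7.0 to 8.07 in GEN. At GD3.5 the sample GD3.5 GEN 1 had the highest Mmp8, -2.56 against -7.30 and -7.24 in the other GEN samples, which were not well above background, and the highest summed neutrophil level, 5.26 against 3.58 and 3.25. The part of these markers in the Mmp8 and Mmp25 values was not tested. Of the membrane-type enzymes, Mmp15 was lower in all 4 GEN samples, at -0.86 to -0.53, than in all 3 CON samples, at -0.43 to 0.22, a difference of -0.55 (SE 0.18, limma adjusted p = 0.478). Mmp17 at GD3.5 went the other way, at 2.49, 2.52 and 2.63 in GEN and 1.83, 2.12 and 1.93 in CON (log2 0.58, SE 0.22, limma adjusted p = 0.655).

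Mmp7 differed most between exposures at GD4.5. CON samples were at -1.56, 1.15, -2.54 and -0.39, and GEN samples at 1.93, 1.32, 0.98 and 3.84. All but GD4.5 CON 2, which lay above GD4.5 GEN 3, separated by exposure. GD4.5 GEN 4, the highest, had a summed neutrophil marker level of 6.84. That level was 1.85 to 2.95 in the other GD4.5 GEN samples and 3.22 to 5.2 in GD4.5 CON. Its Mmp11 was 1.62, against 0.22 to 0.48 in the other GEN samples. The part of this in its Mmp7 value was not tested. The difference of 2.85 (SE 0.84) was not called (limma adjusted p = 0.216). It was 1.37 to 4.44 in the 3 slides with samples of each exposure. The gland markers, all 7 of them lower in GEN at GD4.5 (median -2.11, 1 called), had a summed level of 4.47 to 7.01 in CON and 1.37 to 4.40 in GEN, and their part in the Mmp7 values was not tested. At GD5.5 Mmp7 was at 1.60, 1.99, 2.37 and 2.43 in CON and at 2.08, 1.82, 4.48 and 0.30 in GEN, overlapping, with a difference of 0.07 (SE 0.84, limma adjusted p = 1.00).

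Adamts4 and Adam10 also separated the exposures at GD4.5 without passing the test. Adamts4, an aggrecan- and versican-cutting enzyme, was at 0.12, 1.09, 0.91 and 0.70 in CON and at -0.37, -0.19, -0.32 and -0.25 in GEN. The lowest CON sample lay above the highest GEN sample, and the difference was -0.99 (SE 0.35, limma adjusted p = 0.325), or -1.10 to -0.42 within slides. Adam10, the main sheddase of Notch receptors and E-cadherin, was at -3.68, -3.98, -3.93 and -3.68 in CON and at -3.60, -3.33, -3.48 and -3.59 in GEN (log2 0.31, SE 0.11, limma adjusted p = 0.330). Its relative Adam17, the sheddase of tumour necrosis factor and of EGF receptor ligands, was at 0.79 to 1.34 on all 29 arrays, and no difference of it was called.

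The remaining members with the smallest p on a day were not called either. At GD3.5 the membrane-type Mmp24 differed by -0.79 (SE 0.32, limma adjusted p = 0.752), with GD3.5 CON 1 at -3.84 and the other 5 samples at -6.08 to -5.75, so the difference rests on that sample. Adamts16 was higher in GEN at GD3.5 by 1.23 (SE 0.52, limma adjusted p = 0.776), with GD3.5 CON 2 at -1.39 inside the GEN range of -1.63 to -0.90. Adamts18 differed there by -0.74 (SE 0.46, limma adjusted p = 1.00). At GD4.5 the germline gene Adam6b was at -3.76, -3.73, -3.65 and -3.58 in CON and at -4.66, -3.89, -3.93 and -4.52 in GEN, without overlap (log2 -0.57, SE 0.24, limma adjusted p = 0.422). Adam15, an adhesion-linked ADAM, differed by -0.23 (SE 0.12, limma adjusted p = 0.565). At GD5.5 Adamts7, which cuts cartilage oligomeric matrix protein, was at 0.69, 0.28, 0.50 and 1.09 in CON and at 1.65, 1.43, 1.19 and 0.87 in GEN. Only GD5.5 CON 4 and GD5.5 GEN 4 overlapped, and the difference was 0.64 (SE 0.21, limma adjusted p = 0.608). At GD1.5 Mmp23 differed by -0.26 (SE 0.17) and Adam5 by -0.49 (SE 0.31), both with a limma adjusted p of 1.00. Adam19 differed by 0.53 at GD1.5, Timp3 by 0.38 at GD4.5 and Adamts2 by -0.39 at GD5.5, none of them called.

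**Figure D2:**
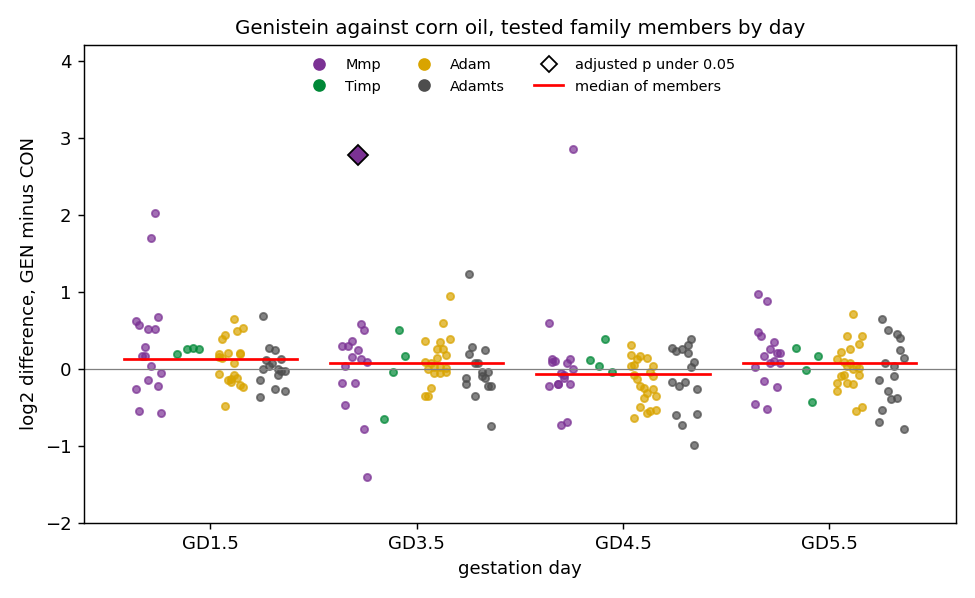
Log2 difference, GEN minus CON (vertical axis), of each tested Mmp, Timp, Adam and Adamts gene on the 4 gestation days (horizontal axis). Points are genes coloured by family, red lines are the medians of the members, and the diamond marks an adjusted p under 0.05. Mmp12 at GD3.5, at 2.78, is the called member, and the medians lie at 0.12, 0.07, -0.07 and 0.07.

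From GD4.5 to GD5.5, the interval in which the implanting embryo is enclosed by decidua, 22 of 59 members changed in CON and 10 of 59 in GEN. In CON 9 rose and 13 fell, and in GEN 6 rose and 4 fell, by the same limma test. All 10 called in GEN were among the 22 called in CON, with the same sign. Mmp25, among the 22, was tested in CON only because its GD4.5 arrays were above background. These shares stand against 30.1% of all genes called in CON (16.0% higher, 14.0% lower) and 21.0% in GEN (12.4% higher, 8.67% lower), so a change on these days was common across the array. Leaving out 1 sample at a time gave 15 to 22 in CON and 5 to 15 in GEN, with 5 without GD5.5 GEN 1 and 6 without GD5.5 GEN 4. A fit on the GEN arrays of these days alone called 0 members by limma, and 0 of all genes, with 11 members at an unadjusted p under 0.05. The median member change was -0.12 in CON against 0.02 over all genes and 0.05 in GEN against 0.09. Of the 11 stroma and decidua markers 8 rose and 0 fell in CON, and 6 rose and 1 fell in GEN. For epithelial markers 7 of 10 fell in CON and 4 in GEN, and 9 of 12 macrophage markers fell in CON and 1 in GEN. Trophoblast markers had a summed level of -0.42 to 0.24 at GD4.5 and 1.76 to 2.63 at GD5.5 in CON, and of -0.42 to 0.44 and then 0.01 to 2.66 in GEN. Gene by gene, 3 of the 6 tested rose and 1 fell in CON, and 2 rose and 0 fell in GEN. Of 8 smooth muscle markers 1 rose and 4 fell in CON, and 1 rose and 0 fell in GEN. The part of these cell markers in the changes below was not tested.

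Adamts3, a procollagen N-proteinase that trims fibrillar procollagen and also processes VEGF-C, rose most. It was at -1.84, -1.46, -2.27 and -1.61 in GD4.5 CON and at 1.79, 1.51, 0.90 and 1.51 in GD5.5 CON. In GEN it was at -1.38, -1.11, -2.25 and -1.35 and then at 0.51, 0.62, -0.19 and 2.00. The days did not overlap in either exposure, with GD5.5 GEN 3 the lowest of the later samples. The log2 difference was 3.23 (SE 0.32, limma adjusted p = 3.85e-07, 9.35-fold) in CON and 2.26 (SE 0.32, limma adjusted p = 1.14e-04, 4.79-fold) in GEN. At GD5.5 GEN was lower than CON by a difference of -0.69 (SE 0.32, limma adjusted p = 0.914); without GD5.5 GEN 4 it was -1.12 and called (limma adjusted p = 0.0370). The related procollagen enzyme Adamts2 rose in CON by 0.60 (SE 0.16, limma adjusted p = 0.00617), and its GEN difference was 0.39.

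The proteoglycan-cutting ADAMTS enzymes moved both ways. Adamts9 rose from 1.29, 1.94, 1.28 and 1.19 to 3.60, 3.45, 2.99 and 3.44 in CON, and from 2.11, 2.27, 1.32 and 1.58 to 2.97, 2.97, 2.40 and 3.61 in GEN. No later sample overlapped an earlier one, and the changes were 1.94 (SE 0.23, limma adjusted p = 3.44e-06) and 1.17 (SE 0.23, limma adjusted p = 0.00182). Adamts15 fell in CON from 3.5, 4.21, 3.37 and 3.52 to 1.79, 1.04, 1.47 and 2.03, a change of -2.07 (SE 0.42, limma adjusted p = 8.91e-04). In GEN it was at 3.70, 3.85, 3.05 and 1.09 and then at 2.50, 2.17, 2.25 and 1.43, a difference of -0.84 (SE 0.42, limma adjusted p = 0.157), with GD4.5 GEN 4 below every later sample. Without that sample the GEN difference was -1.45 and called (limma adjusted p = 0.00628). Adamts8 fell in both exposures, from -0.13, -0.68, -0.67 and -0.40 to -2.25, -2.45, -2.06 and -1.41 in CON (log2 -1.57, SE 0.24, limma adjusted p = 4.72e-05) and by 1.16 on the log2 scale in GEN (SE 0.24, limma adjusted p = 0.00215). Adamts1, an ovulation and implantation-site proteoglycanase, differed by -0.50 (SE 0.19, limma adjusted p = 0.0541) and -0.48 (SE 0.19, limma adjusted p = 0.0760), and Adamts5 by 0.03 and -0.38, none of them called. In this group of 7, 1 rose and 2 fell in CON, and 1 rose and 1 fell in GEN. Beside these, 16.0% of all genes rose and 14.0% fell in CON, and 12.4% rose and 8.67% fell in GEN.

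**Figure D3:**
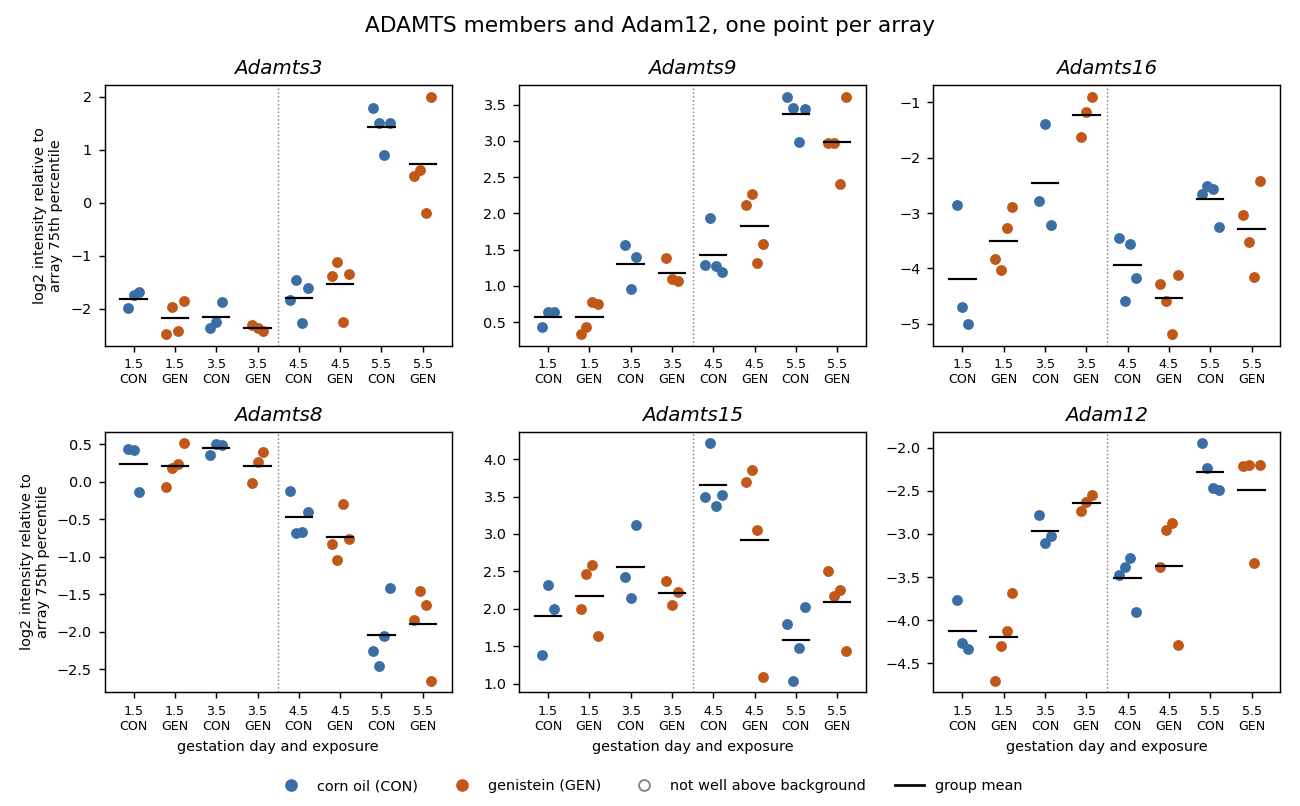
Log2 intensity relative to the array's 75th percentile (vertical axis) for 6 Adam and Adamts genes in every sample of the 8 groups (horizontal axis); symbols, colours and the dotted line are as in the plot of Mmp genes by sample. Adamts3 lies between -2.47 and -1.11 on the first 3 days and between -0.19 and 2.00 at GD5.5.

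Of 9 broadly expressed ADAM sheddases, 4 rose and 0 fell in CON, and 3 rose and 0 fell in GEN. The shares over all genes were 16.0% higher and 14.0% lower in CON, and 12.4% and 8.67% in GEN. Adam19 (meltrin beta, a neuregulin sheddase) was at -0.74, -0.77, -0.69 and -0.79 in GD4.5 CON and 0.31, 0.37, 0.56 and 0.72 in GD5.5 CON. The GEN samples were at -0.76, -0.75, -0.91 and -0.74 and then at 0.24, 0.01, -0.53 and 0.07. The GD4.5 samples were tightly grouped and all later ones lay above them, with changes of 1.24 (SE 0.16, limma adjusted p = 9.24e-06) and 0.74 (SE 0.16, limma adjusted p = 0.00356). At GD5.5 every GEN sample was below every CON sample, a difference of -0.55 (SE 0.16, limma adjusted p = 0.539) that was not called. Adam12 rose again, from -3.48, -3.38, -3.28 and -3.91 to -1.95, -2.23, -2.47 and -2.49 in CON (log2 1.23, SE 0.28, limma adjusted p = 0.00215) and by 0.88 in GEN (SE 0.28, limma adjusted p = 0.0289), where GD5.5 GEN 3 at -3.34 overlapped the GD4.5 samples. The GEN call was lost without GD4.5 GEN 4 or GD5.5 GEN 1, 2 or 4 (limma adjusted p of 0.0736 to 0.144). Adam8, a sheddase of leukocytes, rose by 0.79 (limma adjusted p = 0.00623) in CON and 0.63 (0.0345) in GEN, where the call was lost without GD4.5 GEN 1 or 3 or GD5.5 GEN 1 or 4 (limma adjusted p of 0.0928 to 0.114). Adam10 rose by 0.35 in CON (SE 0.11, limma adjusted p = 0.0232) and differed by -0.15 in GEN; the CON call was lost without GD4.5 CON 2 or 3 or GD5.5 CON 1 or 4 (limma adjusted p of 0.0624 to 0.107). Adamts16 rose by 1.2 (SE 0.45, limma adjusted p = 0.0461) and 1.26 (SE 0.45, limma adjusted p = 0.0491), calls lost in 6 and 7 of the 8 fits without 1 sample of these groups. Only leaving out GD4.5 CON 1, GD5.5 CON 4 or GD5.5 GEN 3 kept them, and the limma adjusted p was otherwise 0.0522 to 0.161. The other Adamts16 probe differed by 0.16 in CON and 0.46 in GEN, and the mean over both probes by 0.68 and 0.86, neither called (limma adjusted p of 0.191 and 0.105).

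Of 17 Mmp genes tested in CON 7 fell and 1, Mmp7, rose, and of 16 tested in GEN 3 fell and 0 rose. Over all genes 14.0% fell and 16.0% rose in CON, and 8.67% fell and 12.4% rose in GEN. Mmp3 was at 1.91, 1.70, 1.21 and 1.59 in GD4.5 CON and -1.36, 0.25, -0.33 and -0.41 in GD5.5 CON. In GEN it was at 1.35, 2.21, 1.43 and 1.79 and then at 0.28, 1.21, 0.83 and -0.30. Every later sample was below every earlier sample of its exposure, with changes of -2.07 (SE 0.36, limma adjusted p = 1.88e-04, 4.19-fold) and -1.19 (SE 0.36, limma adjusted p = 0.0220, 2.28-fold). The GEN call was lost without GD4.5 GEN 2 or 4 or GD5.5 GEN 1 or 4 (limma adjusted p of 0.0510 to 0.0883). At GD5.5 GEN was higher than CON by 0.97 (SE 0.36, limma adjusted p = 0.713), not called. The membrane-type Mmp16 fell by 1.35 in CON (SE 0.22, limma adjusted p = 1.06e-04) and by 1.00 in GEN (SE 0.22, limma adjusted p = 0.00376). Its other probe, above background on 8 arrays, differed by -0.48 in CON and -1.03 in GEN (SE 0.66 each). With the mean over probes the CON call was lost (limma adjusted p = 0.0673). The GEN call was lost there, with normexp, with slide as a fixed block and with only the arrays compared. Over all fits the GEN difference was -1.16 to -0.17. Mmp19 fell by 1.03 (SE 0.20, limma adjusted p = 6.72e-04) and 0.75 (SE 0.20, limma adjusted p = 0.0131), the latter call lost without GD5.5 GEN 1 or 4 (limma adjusted p of 0.0545 to 0.0583). Mmp17 fell in CON by 0.63 (SE 0.19, limma adjusted p = 0.0164), a call lost in 3 fits without 1 sample, GD4.5 CON 1 or GD5.5 CON 1 or 2 (limma adjusted p of 0.0530 to 0.0613). Mmp25 fell there by 1.31 (SE 0.48, limma adjusted p = 0.0443), with 1 of the 4 GD5.5 CON arrays above background. It was tested only because its GD4.5 CON arrays were above background, so the p is given as a description. Its call was lost in 7 of the 8 fits without 1 sample of these groups, all but that without GD4.5 CON 2 (limma adjusted p of 0.0628 to 0.104), with the replicate block (0.0582) and with normexp (-0.26).

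The gelatinases, which cut denatured collagen and basement membrane, fell in CON. Mmp2 was at 5.03, 5.18, 5.10 and 4.92 and then at 4.29, 4.27, 4.66 and 4.51 in CON, without overlap (log2 -0.62, SE 0.16, limma adjusted p = 0.00576). The GEN samples were at 5.19, 5.16, 5.48 and 4.79 and then at 4.56, 5.16, 5.16 and 4.58, overlapping, with a difference of -0.29 (SE 0.16, limma adjusted p = 0.198). Mmp9 was at -2.40, -2.88, -1.76 and -2.57 and then at -3.38, -3.64, -3.01 and -3.71 in CON (log2 -1.03, SE 0.34, limma adjusted p = 0.0225), and its GEN difference was -0.10 (SE 0.34, limma adjusted p = 0.852). The Mmp9 call was lost without GD4.5 CON 3 or GD5.5 CON 2 or 4 (limma adjusted p of 0.0588 to 0.0951). At GD5.5 GEN exceeded CON by 0.43 for Mmp2 and 0.88 for Mmp9 (limma adjusted p of 0.738 and 0.743), not called. Mmp14, the membrane-type MMP that activates pro-MMP2, was at 4.93 to 6.44 over all 29 arrays, and its differences of -0.29 and -0.13 were not called.

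Mmp7 went the opposite way to the other Mmp genes called in CON. It rose in CON from -1.56, 1.15, -2.54 and -0.39 to the GD5.5 range of 1.60 to 2.43, a change of 2.93 (SE 0.84, limma adjusted p = 0.0108, 7.62-fold) with 0.45 to 4.53 within the 4 slides. In GEN, already at 0.98 to 3.84 on GD4.5, the difference was 0.15 (SE 0.84, limma adjusted p = 0.914). The change in the genistein difference between the days, -2.78 (SE 1.19), was not called (limma adjusted p = 0.648), nor was any member's (0.00443% of all genes were). Without GD4.5 CON 3 the CON call was lost, at 2.36 (limma adjusted p = 0.0531).

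**Figure D4:**
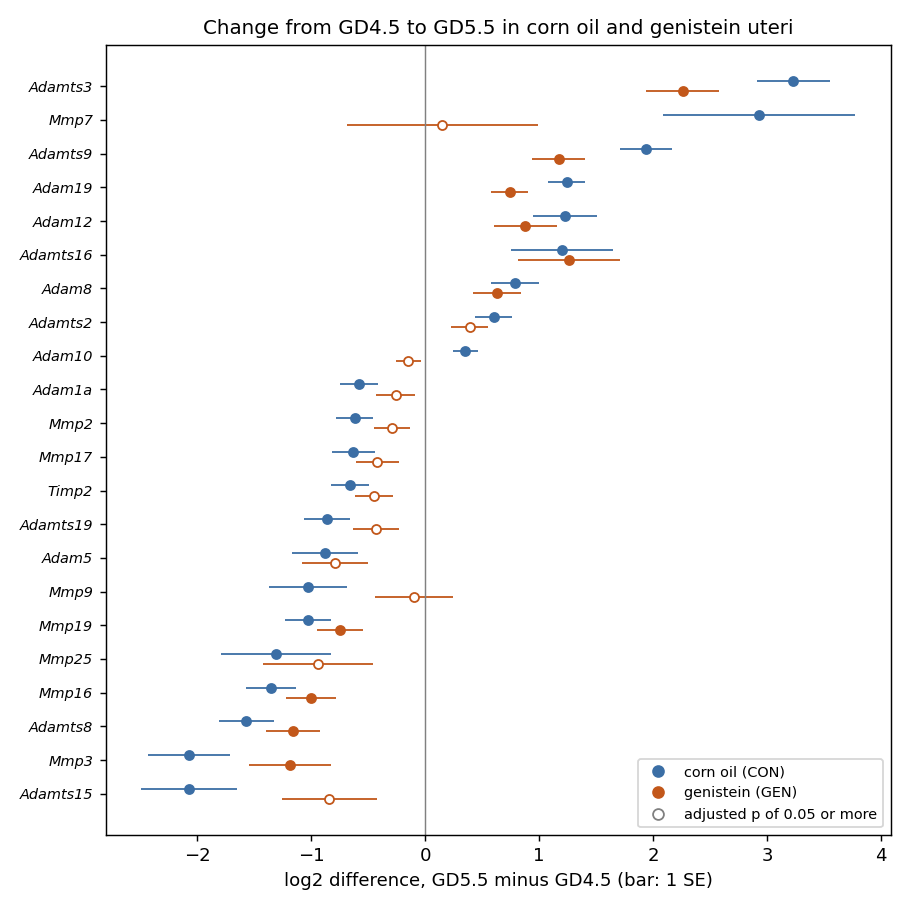
Log2 difference, GD5.5 minus GD4.5 (horizontal axis), of each member called in either exposure (vertical axis), with CON and GEN in different colours. Bars are 1 SE and open points have an adjusted p of 0.05 or more. Adamts3 lies at 3.23 in CON and 2.26 in GEN, and Mmp3 at -2.07 and -1.19.

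All 4 Timp genes, the inhibitors of these enzymes, were well above background on every array. Timp2, which inhibits MMPs and also helps activate pro-MMP2, was at 6.51, 5.91, 6.41 and 6.19 in GD4.5 CON and 5.46, 5.70, 5.76 and 5.47 in GD5.5 CON, without overlap. This fall of 0.66 on the log2 scale (SE 0.17, limma adjusted p = 0.00524) was the only change of a Timp gene called in this fit. Its GEN difference was -0.45 (SE 0.17, limma adjusted p = 0.0624), and was called with quantile normalization (-0.57, limma adjusted p = 0.0236) and in some other fits. Timp1, the soluble inhibitor of broad range, was at 2.42, 3.60, 2.39 and 2.60 in GD4.5 CON and 3.09, 3.46, 2.93 and 2.97 in GD5.5 CON, overlapping (log2 0.36, SE 0.35, limma adjusted p = 0.50). At GD3.5 it was at 1.99, 1.03 and 1.40 in CON and 1.07, 0.65 and 0.70 in GEN, with a difference of -0.66 (SE 0.40, limma adjusted p = 1.00). Timp3, which is bound to matrix and also blocks ADAM17, was at 4.21, 4.40 and 4.41 in GD3.5 CON and 4.67, 5.05 and 4.81 in GD3.5 GEN. These samples separated by exposure, but the difference of 0.50 (SE 0.25, limma adjusted p = 0.942) was not called. Between GD4.5 and GD5.5 Timp3 differed by 0.23 in CON and -0.58 in GEN (limma adjusted p of 0.486 and 0.0591). The GEN difference of Timp3 was called with the replicate number as a block (-0.58, limma adjusted p = 0.0385) and with quantile normalization (-0.71, limma adjusted p = 0.0304). Timp4 was at -5.41 to -2.30 over all 29 arrays, and none of its differences was called.

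**Figure D5:**
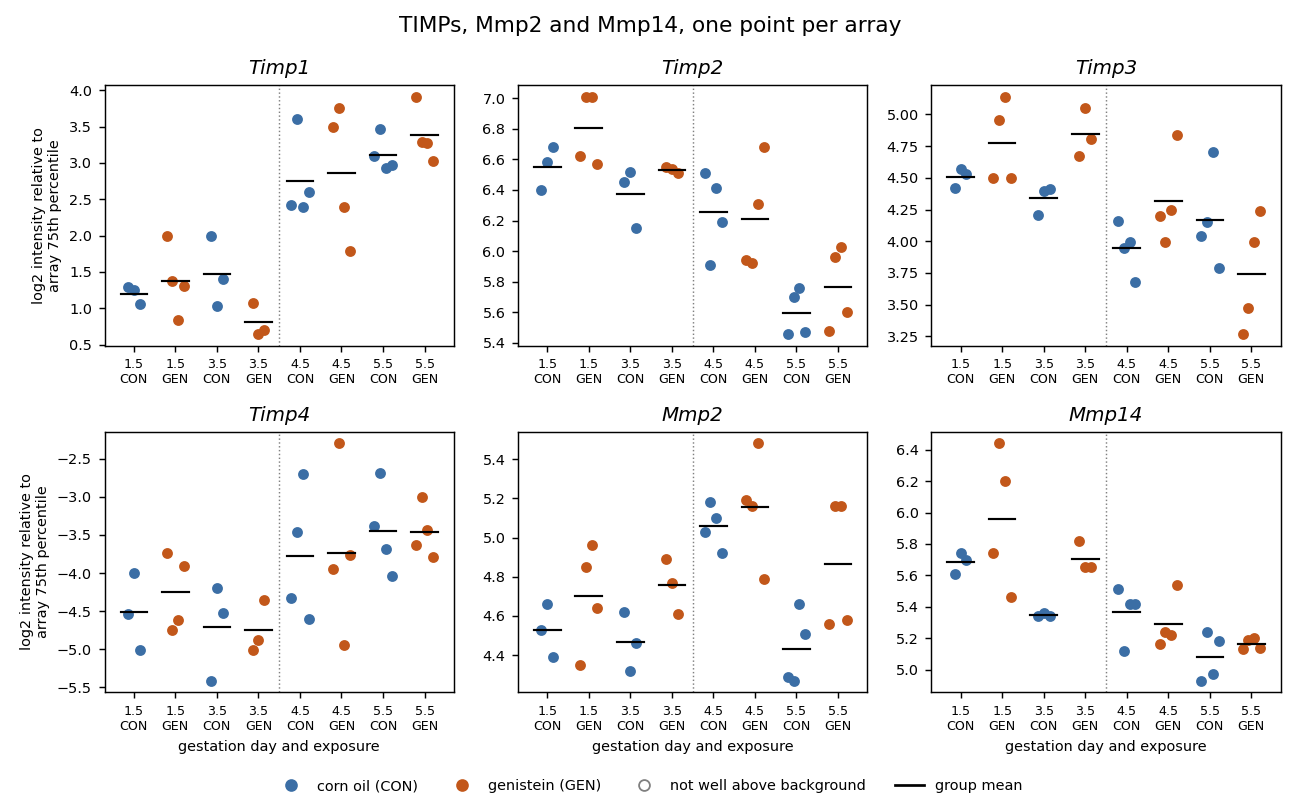
Log2 intensity relative to the array's 75th percentile (vertical axis) in every sample of the 8 groups (horizontal axis) for the 4 Timp genes, Mmp2 and Mmp14; symbols, colours and the dotted line are as in the plot of Mmp genes by sample. The CON points of Timp2 lie between 5.91 and 6.51 at GD4.5 and between 5.46 and 5.76 at GD5.5.

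ADAM genes known mainly from the testis and sperm were the least measured group. Of 17 on the array 12 could be tested and 4 were above background on all 29 arrays. From GD1.5 to GD3.5, 0 of 10 tested were called in each exposure, beside 2.33% of all genes in CON and 4.76% in GEN. From GD4.5 to GD5.5, 2 of 11 tested (Adam5 and Adam1a) fell in CON, where 14.0% of all genes fell. Adam5 fell by 0.88 on the log2 scale, and the other probe of the gene differed by 0.50 (SE 0.45) in the opposite direction. Sperm markers had 0 called between GD1.5 and GD3.5, and 2 rose from GD4.5 to GD5.5 in each exposure, Odf2 and Zpbp in CON and Odf2 and Prm2 in GEN. Their part in the Adam values was not tested.

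Genes that work with these enzymes were followed in 4 lists. Their counts stand beside 2.33% of all genes called from GD1.5 to GD3.5 in CON and 4.76% in GEN, and 30.1% and 21.0% from GD4.5 to GD5.5. Of genes that activate or restrain MMPs, 0 of 17 rose and 2 fell in CON from GD1.5 to GD3.5, among them Lcn2 (lipocalin, a partner of MMP9) by 5.60 on the log2 scale; in GEN 1 rose and 2 fell, Lcn2 by 6.38. From GD4.5 to GD5.5, 3 of 16 rose and 5 fell in CON, with Plaur, the urokinase receptor, up by 1.80 and Pcsk5, a proprotein convertase, up by 1.80. In GEN 2 rose and 3 fell, Pcsk5 by 1.68 and Plaur by 1.62 upward. Of 11 ADAM regulators, 2 rose and 6 fell in CON and 2 rose and 3 fell in GEN over the same interval. Of 19 substrates shed by ADAMs, Areg (amphiregulin, an EGF receptor ligand) rose from GD1.5 to GD3.5 by 6.03 in CON and 5.44 in GEN and was the only one to rise, while 0 fell in CON and 3 in GEN. From GD4.5 to GD5.5, 2 rose and 3 fell in CON, with Hbegf (another ligand of that receptor) up by 0.93 and Cd44 down, at -1.11. In GEN 1 rose and 4 fell over that interval. Of 20 ADAMTS substrates and relatives, 2 rose and 9 fell over that interval in CON, with Vcan (versican) up by 1.07 and Has2 (hyaluronan synthase) down, at -1.64. In GEN 1 rose and 3 fell. None of the 4 lists had a gene called between exposures on a single day. In the average over the 4 days Thsd4, of the ADAMTS relatives, was higher in GEN by 0.69 (SE 0.17, limma adjusted p = 0.0436).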

How the data were processed

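Uterine RNA from 29 samples was labelled with Cy3 and hybridised to one-colour arrays, per the labels. The deposited files hold spot intensity from Agilent Feature Extraction 9.5, per the file headers, already background-subtracted in the processed signal; gene names follow the array design and were updated through RefSeq accessions and symbols. Here log2 of the processed signal was set relative to each array's 75th percentile, marked spots were left out, and the brightest probe stood for a gene. limma 3.58.1 (R 4.3.3) fitted 8 group means on all 29 arrays. A gene was tested where at least 3 of the arrays being compared read it well above background, with Benjamini-Hochberg adjustment over all of them and an adjusted p under 0.05 as the threshold. The procedure was tested on simulated data with independent noise, where only genes above background on all 29 arrays were changed. Those data held no slide effect, no pairing and no change in dim genes, so they do not bear on these. Named members were those called between exposures, the 3 with the smallest p in each direction per day, up to 6 non-overlapping rises and falls per interval, and 19 key enzymes and inhibitors; Adam8, Adam1a, Mmp19 and, between GD4.5 and GD5.5, Adamts2, Adam5 and Mmp17 fall outside this rule and were named after their values were seen, as were the genes of the other lists. Members and lists were chosen with earlier results of these data known. Same-numbered CON and GEN samples were checked for pairing: their deviations correlated at -0.26 to 0.49 on GD1.5, GD3.5 and GD4.5, and at 0.33 to 0.43 in all 4 pairs of GD5.5, where blocking on the number changed no call of GEN against CON on that day. For the intervals the block instead tied same-numbered samples of one exposure on different days, a pairing that was not checked. From GD4.5 to GD5.5 it ended the call of Mmp25 in CON (limma adjusted p = 0.0582). In GEN 12 members were then called, 10 of them also called without the block, and Timp3 was among those added (log2 -0.58, limma adjusted p = 0.0385). Alternatives were normexp, quantile and median scaling, 2 filters, the mean over probes, marked spots, slide and replicate blocks, only the arrays compared, and leaving out each sample.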

Additional observations from a re-analysis of the deposited data

Results flagged for a closer look

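In 6 of 185 groups of 4 samples tested over 37 named members, 1 sample lay apart from the others by Dixon's criterion, which chance meets in about 1 in 20 groups. All 6 were well above background. Adam12 in GD5.5 GEN 3 was at -3.34, and the other GD5.5 GEN samples were at -2.21 to -2.20. Adam19 in GD4.5 GEN 3 was at -0.91, against -0.76 to -0.74. Adamts9 in GD4.5 CON 2 was at 1.94, against 1.19 to 1.29. Mmp15 in GD5.5 CON 2 was at -0.40, against -0.60 to -0.57. Mmp23 in GD1.5 GEN 3 was at 2.28, against 2.67 to 2.75. Mmp3 in GD1.5 GEN 4 was at 1.76, against 2.99 to 3.08.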

How the results depend on the processing

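Of 36 called results of named members, 13 were kept in all 12 alternatives and all fits without 1 sample in which they were tested, and 2, both of Mmp12, changed sign. Of 221 uncalled results, 89 changed sign in some fit and 27 were called in some fit. The count of members called by limma in GEN against CON at GD3.5 was 0 in place of 1 with normexp, normexp without spots of high local background (an alternative chosen after seeing the data), the filter on all 29 arrays, only the arrays compared, and slide as a fixed block, with 3, 6, 4, 8 and 3 members at an unadjusted p under 0.05. At GD5.5 it was 34 with normexp, as 9497 of all genes were called, and 0 once spots of high local background were left out. GD3.5 against GD1.5 in CON gave 2 with the filter on all 29 arrays and 1 with slide as a fixed block. GD5.5 against GD4.5 in GEN gave 37 with normexp (11579 of all genes; 12 members without spots of high local background), 0 with only the arrays compared and 4 with slide as a fixed block. The cause was not tested.

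The replicate block gave 0, 1, 0 and 0 members in GEN against CON on the 4 days and 3, 9, 21 and 12 in the intervals, GD1.5 to GD3.5 in CON and GEN and then GD4.5 to GD5.5. Averaged over days it gave 1 in place of 0, Mmp12 (log2 1.07, limma adjusted p = 0.0259). Fits without 1 sample gave 0 to 0 at GD1.5, 0 to 1 at GD3.5, 0 to 0 at GD4.5, 0 to 1 at GD5.5 and 0 to 1 in the average, where leaving out GD3.5 CON 2 called Mmp12 (0.95, limma adjusted p = 0.0109). In the intervals they gave 1 to 4, 4 to 11, 15 to 22 and 5 to 15. No GD3.5 CON, GD4.5 or GD5.5 array read Mmp12 well above background, so the p-values of its average are given as descriptions.

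With normexp, signs turned for Adam10 and Mmp10 between GD4.5 and GD5.5 in GEN (1.05 and 1.15) and between exposures at GD5.5 (0.97 and 1.26), for Mmp25 between GD4.5 and GD5.5 in GEN (1.17), and for Mmp12 between GD1.5 and GD3.5 in CON (0.03) and between exposures at GD3.5 (-0.15). The median over all genes of the change in the genistein difference was 0.10 with median scaling against -0.02 from GD3.5 to GD4.5, and 0.45 with normexp against 0.04 from GD4.5 to GD5.5. Signals near background limit Mmp12, Mmp8, Mmp25, Mmp10 and most germline Adam genes.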
